A study of Arabidopsis thaliana with 24 samples.

Results

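A set of 85 probe sets, of 22746 that are not controls, was examined. Their transcripts were lower at siliques stage 3 than at stage 5 and lower in seeds stage 10 than in stage 6. The members were chosen on group means of log2(signal + 7): siliques stage 5 was above siliques stage 3 by at least 2.5 (log2), and seeds stage 6 was above seeds stage 10 by at least 2.5. A further 2 genes that met both thresholds are not reported here. The annotation pairs 43 of the 85 members with exactly 1 gene and the other 42 with none, so 43 can be named. All samples were wild-type Arabidopsis thaliana of the accession Col-0 with no treatment in the labels, 3 Affymetrix ATH1 arrays a group and 24 arrays in 8 groups. For stages 3, 4 and 5 the material was the whole silique, which is the fruit wall together with its seeds, and for stages 6, 7, 8, 9 and 10 it was seeds freed of the silique. Stages are given as numbers, with no days after flowering, and a long photoperiod on soil is labelled for stage 3 alone. How many plants a sample pools is not in the labels, so a p-value here reflects scatter among arrays that need not be biological. In whole siliques, a different share of seeds in the RNA and a different level within the seeds cannot be told apart, and in all samples fewer cells of a type and less RNA per cell cannot be told apart.

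As background, an Arabidopsis seed passes from embryo patterning into maturation, when the embryo fills with oil and storage protein while the seed coat lays down mucilage, pigment and wall material, and then into drying, when protective proteins accumulate and much of the filling machinery is switched off. The products of the named members belong to several classes: lipases and lipid transfer proteins, which handle lipids of membranes and of surface layers; secreted enzymes that remodel the cell wall; enzymes that oxidise, methylate or conjugate small molecules; and a few regulators and transporters.

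The thresholds were met by 1.74% of the probe sets for the difference between siliques stages 5 and 3 and by 3.1% for that between seeds stages 6 and 10. Since both contrasts chose the members, their values are given as a description with no test. The median member was 3.95 (log2) higher at siliques stage 5 than at stage 3, in a range of 2.52 to 8.73. It was 3.45 higher in seeds stage 6 than in stage 10, in a range of 2.53 to 6.58. Just inside the first threshold lay GSTU20 at 2.52 and AGL87 at 2.52, and just outside it AT5G48360 at 2.49 and AT3G22550 at 2.45. For the second threshold AT1G62210 at 2.60 and AT4G19460 at 2.75 were just inside, and AT1G64800 at 2.48 and AT2G14690 at 2.41 just outside. The number of members moves with the offset used in log2(signal + offset): 49 of the 85 met both thresholds with an offset of 28.

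Signals are MAS5 values on a linear scale that the authors scaled to a common level per array, so each is relative to the rest of its array. Pearson's r between arrays of the same group was 0.971 to 0.993 over the tested probe sets (log2), a description since probe sets are no replicates. The median signal of all probe sets ranged from 32.6 to 42.4 over the arrays. The 25S ribosomal RNA control was above 1000 on 6 arrays: both A and C of seeds stage 8, both A and D of stage 10, C of stage 7 and A of stage 6. With no detection calls in the deposited values, a low signal cannot be told from background, and 54 of the 85 members lay under the 40th percentile of the array on all 3 arrays of siliques stage 3, as did 31 on all 3 of seeds stage 10. Differences from such levels depend on the offset. Not all members were low there: 30 lay above the 40th percentile on all 3 arrays of siliques stage 3 and 34 on all 3 of seeds stage 10.

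In the groups between, most members were near their siliques stage 5 level by siliques stage 4, and the largest part of the later difference lay between seeds stages 7 and 8. Taking the log2 difference between siliques stages 3 and 5 as the whole, a median of 92.1% of it was present at stage 4. Of the log2 difference between seeds stages 6 and 10, a median of 9.36% had gone at stage 7, 66.96% at stage 8 and 88.9% at stage 9. The median signal over the 85 members was 11.02 to 14.4 on the arrays of siliques stage 3, 314 to 339 at stage 4 and 384 to 399 at stage 5. In seeds it was 412 to 465 at stage 6, 327 to 346 at stage 7, 60.7 to 64.1 at stage 8, 29.2 to 32.3 at stage 9 and 23.9 to 25.1 at stage 10. Of the whole signal of an array the members held 1.60% to 1.63% at seeds stage 7 and 0.354% to 0.368% at stage 8. At seeds stage 10, 44 of the 85 stood within 2-fold of their siliques stage 3 level, 29 at least 2-fold above it and 12 at least 2-fold below. Both groups took part in the choice of members, so these counts are a description. Many signals in both groups were low, where the offset narrows a ratio.

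**Figure D1:**
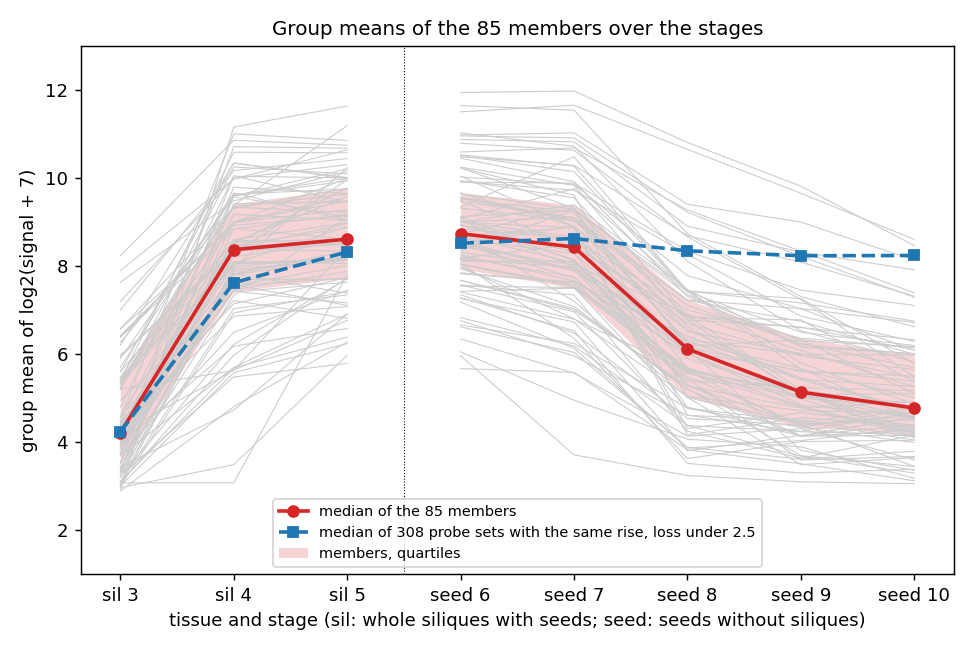
Group means of log2(signal + 7) of the 85 members (thin lines, 1 per probe set) over the 8 groups, with their median and quartiles, and the median of 308 probe sets that met the first threshold and not the second. The median of the members went from 8.43 in seeds stage 7 to 6.12 in stage 8, whereas that of the 308 was 8.63 and 8.35.

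Seeds stages 7, 8 and 9 took no part in the choice of members, so the fall was tested there. From stage 7 to stage 9, 84 of the 85 members fell and none rose, with a median change of -2.72 (log2), or 6.58-fold. Over all 16940 tested probe sets 15.5% fell and 9.66% rose, and the median was 0.00. The 3 arrays of stage 9 lay all below the 3 of stage 7 for 84 members, against 34.8% of all tested probe sets, and all above for no member, against 32.2%. The choice of members fixed that each was lower at stage 10 than at stage 6, so these arrays bear on when the fall came. Of 85 members 83 fell from stage 7 to 8, with a median of -2.08 and a background of 11.3% lower and 8.06% higher. The arrays did not overlap in that step for 84 members, against 33.7% of all tested probe sets lower without overlap. From stage 8 to 9 23 were called lower, with a median of -0.64 and a background of 2.61% lower and 1.04% higher. With an offset of 28 the latter count was 11. All 23 had also fallen from stage 7 to 8. Without regard to the 2-fold limit, the 3 arrays of stage 9 lay all below the 3 of stage 8 for 59 members. That was so for 18.7% of all tested probe sets. They lay all above for 1 member, against 16.7%. A median of 75.1% of the log2 change between stages 7 and 9 was present at stage 8. No member rose in any of these seed steps by the limma test, where an unadjusted p under 0.05 with a higher level occurred for 0 members in stage 9 against 7, 0 in stage 8 against 7 and 2 in stage 9 against 8. Centring each array on reference genes moved the median of all tested probe sets from 0.00 to 0.25 in stage 9 against 7 and from -0.02 to 0.21 in stage 8 against 7. Higher calls then made up 57.8% in place of 38.3% of all calls in the former and 62.2% in place of 41.7% in the latter, while 83 and 78 members were still called lower.

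The median signal over the members was alike on arrays of a group that differed widely in the 25S control. At stage 8 the arrays A and C read 4717 and 4242 for this control and array B read 119, and the median signal over the members was 60.7, 64.1 and 63.0 on A, C and B. Leaving out the 6 arrays above 1000 left 84 members called lower in stage 9 against 7. It left 1 array at stage 8, and the median change of the members in stage 8 against 7 was then -2.07. The part of the control in the fall was not tested.

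**Figure D2:**
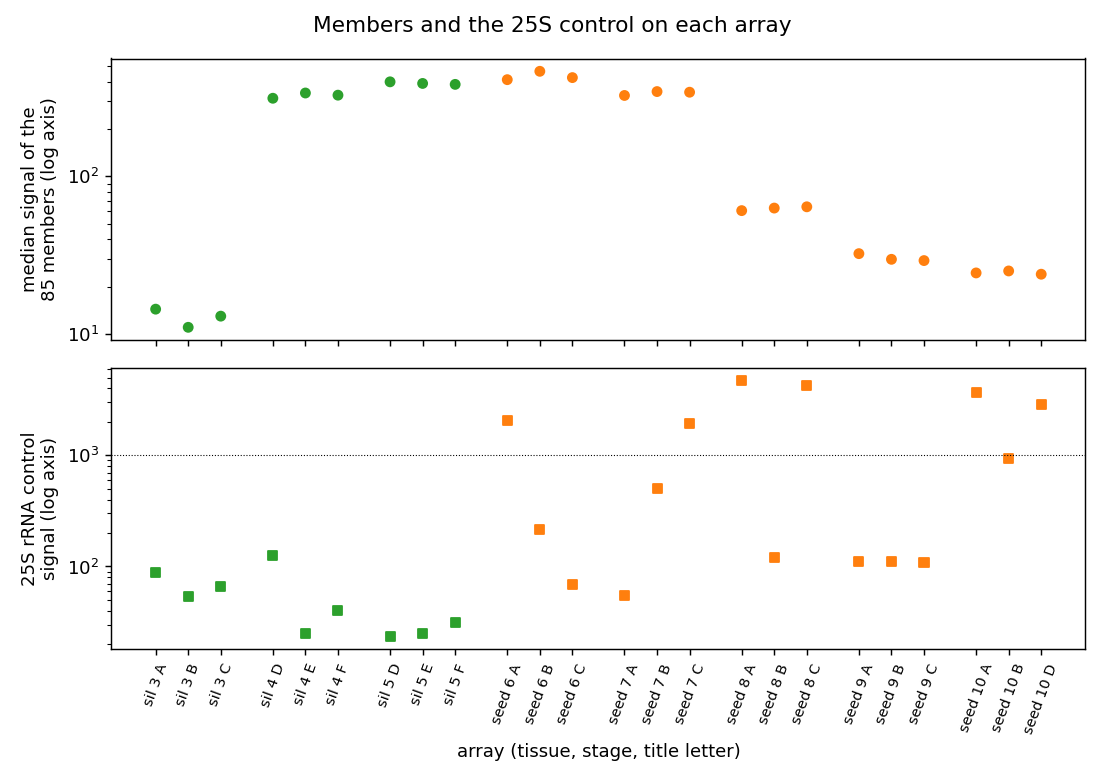
Median signal over the 85 members (top) and signal of the 25S ribosomal RNA control (bottom) on each of the 24 arrays, both on log axes, with whole siliques in green and seeds in orange; the dotted line marks a control signal of 1000. The 3 arrays of seeds stage 8 have member medians of 60.7 to 64.1 at control signals of 119 to 4717.

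AT1G62070, for which no role is known here, differed by 8.73 (log2) between siliques stages 3 and 5, the top of the range among members. AT1G62070 read 0.327, 0.426 and 0.774 on the 3 arrays of siliques stage 3, 2318, 2175 and 2343 at stage 4 and 3309, 3154 and 3073 at stage 5. In seeds AT1G62070 was at 3268, 3088 and 3247 at stage 6, 3073, 2989 and 2856 at stage 7, 397, 456 and 404 at stage 8, 150.0, 184 and 125 at stage 9 and 91.2, 92.6 and 90.4 at stage 10. It was close to 0 on the stage 3 arrays, stood high on all 12 arrays from siliques stage 4 to seeds stage 7, and the groups on either side of each step from stage 7 on did not overlap. From seeds stage 7 to 9 it fell by 4.24 (-4.24 ± 0.09 (SE), adjusted p = 1.62e-22), with a change of -2.81 ± 0.09 in the step to stage 8 and of -1.43 ± 0.09 in the step to stage 9. Between siliques stage 4 and seeds stage 7 its difference was 0.38, short of 2-fold.

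From seeds stage 7 to 9, 84 of the 85 members fell, beside 15.5% of all tested probe sets. Among them were all 9 named members classed with lipid enzymes and lipid transfer, mostly by their family. Their median change was -2.79 (log2) in a range of -4.18 to -2.16. They are 5 GDSL lipases (AT1G28590, AT1G71250, AT1G71691, AT5G08460 and AT5G22810), a family of secreted esterases, 2 members of the lipid transfer protein superfamily (AT1G62500 and AT5G38180), the alpha/beta hydrolase AT4G36610 and AT1G73600, a phosphoethanolamine N-methyltransferase of phosphatidylcholine synthesis. AT5G38180 read 0.565, 6.47 and 7.34 on the 3 arrays of siliques stage 3, 1299.7, 951 and 946 at stage 4 and 626, 782 and 679 at stage 5. In seeds AT5G38180 was at 672, 699 and 734 at stage 6, 601, 489.8 and 534 at stage 7, 109, 78.6 and 91.99 at stage 8, 26.3, 35.4 and 23.6 at stage 9 and 19.3, 14.6 and 1.74 at stage 10. Stage 7 and stage 8 were apart on every array, and the level at stage 4 lay above that at stage 5. It fell by 3.96 from stage 7 to 9 (adjusted p = 1.81e-12), with -2.46 ± 0.27 in the first step and -1.50 ± 0.27 in the second.

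AT1G62500 read 38.1, 26.2 and 33.5 on the 3 arrays of siliques stage 3, 653, 668 and 662 at stage 4 and 2453, 2377 and 2170.4 at stage 5. In seeds AT1G62500 was at 4205, 3326 and 4328 at stage 6, 4384, 4148 and 3578 at stage 7, 1821, 1699 and 1832 at stage 8, 857, 960.4 and 866 at stage 9 and 343, 338 and 358 at stage 10. Its levels at seeds stages 6 and 7 overlapped and each later stage lay below the one before. By siliques stage 4, 69.3% of its log2 difference between stages 3 and 5 was present, and by seeds stage 8 32.7% of its loss, both below the medians of the members. AT1G62500 fell by 2.16 from stage 7 to 9 (-2.16 ± 0.10 (SE), adjusted p = 6.85e-16). Its step from stage 7 to 8, -1.17 ± 0.10, was -0.94 and not called with the arrays centred on reference genes.

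AT1G71691 read 86.3, 70.2 and 80.5 on the 3 arrays of siliques stage 3, 484, 532 and 489.9 at stage 4 and 665, 703 and 756 at stage 5. In seeds AT1G71691 was at 1408, 1393 and 1378 at stage 6, 951, 938 and 993 at stage 7, 159, 154 and 142 at stage 8, 74.4, 63.8 and 63.7 at stage 9 and 50.6, 67.2 and 55.01 at stage 10. For this GDSL lipase the arrays of stages 7, 8 and 9 were apart from each other, and it fell by 3.71 from stage 7 to 9 (adjusted p = 1.65e-21). The other 4 GDSL lipases fell between -3.02 (AT5G22810) and -2.75 (AT1G28590), AT5G08460 from 619.7 ± 40.6 (SD, n = 3) to 83.9 ± 11.9 and AT1G71250 from 514 ± 12.1 to 68.8 ± 4.18. The methyltransferase gene AT1G73600 was highest at siliques stage 4, at 1289 ± 23.6, and fell from 312 ± 5.59 to 10.7 ± 2.36, a change of -4.18 ± 0.10, of which -3.52 ± 0.10 lay in the step to stage 8. AT4G36610 stood apart in its onset, with 44.9, 41.6 and 40.8 at siliques stage 4, 335, 334 and 332 at stage 5 and 937, 936 and 988 in seeds stage 6, so that 13.2% of its difference was present at stage 4. It fell by 2.43 from stage 7 to 9.

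Of 8 named members for cell wall enzymes and other secreted proteins all fell from seeds stage 7 to 9, with a median change of -2.47, and 6 had their highest mean at siliques stage 4. That fall was common to 84 of the 85 members, beside 15.5% of all tested probe sets. ATPMEPCRD is a pectin methylesterase, an enzyme that strips methyl groups from wall pectin. ATPMEPCRD read 15.6, 17.2 and 16.1 on the 3 arrays of siliques stage 3, 1970.4, 2037 and 2129 at stage 4 and 1859, 1841 and 1835 at stage 5. In seeds ATPMEPCRD was at 1202, 1153 and 1235 at stage 6, 647, 657 and 586 at stage 7, 14.7, 20.7 and 17.4 at stage 8, 14.2, 4.23 and 21.2 at stage 9 and 14.9, 26.05 and 1.15 at stage 10. All 3 arrays of stage 8 lay far below those of stage 7, while stages 8, 9 and 10 overlapped. It fell by 4.70 in the step from stage 7 to 8 (-4.70 ± 0.30 (SE), adjusted p = 1.22e-12), the largest such step among the named members, and by 5.08 from stage 7 to 9.

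AT1G50650 belongs to the STIG1 family of small secreted cysteine-rich proteins. AT1G50650 read 14.97, 7.52 and 5.57 on the 3 arrays of siliques stage 3, 515, 602 and 599.5 at stage 4 and 468, 554 and 542 at stage 5. In seeds AT1G50650 was at 261, 259 and 262 at stage 6, 78.6, 78.9 and 68.2 at stage 7, 3.36, 3.87 and 9.74 at stage 8, 4.35, 17.3 and 8.21 at stage 9 and 7.98, 15.3 and 6.43 at stage 10. Stage 6 and stage 7 were apart, and stages 8 to 10 overlapped among the low signals. It fell by 2.35 from stage 7 to 9 (adjusted p = 2.29e-09), and 42.4% of its loss was already complete at stage 7, against the median of 9.36%.

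AT5G15180 read 6.80, 0.403 and 4.36 on the 3 arrays of siliques stage 3, 468, 456 and 445 at stage 4 and 381, 389 and 383 at stage 5. In seeds AT5G15180 was at 343, 351 and 368 at stage 6, 206, 211 and 201 at stage 7, 51.4, 46.9 and 31.9 at stage 8, 29.1, 30.6 and 24.99 at stage 9 and 21.2, 16.8 and 12.97 at stage 10. AT5G15180 is a class III peroxidase, a secreted enzyme that acts on wall polymers. Each seed group from stage 6 to stage 8 lay below the one before on every array. It fell by 2.60 from stage 7 to 9 (-2.60 ± 0.16 (SE), adjusted p = 5.1e-13). AT3G24250 read 46.2, 54.5 and 27.1 on the 3 arrays of siliques stage 3, 1172, 1306 and 1395 at stage 4 and 994, 1076 and 1005 at stage 5. In seeds AT3G24250 was at 793, 799 and 818 at stage 6, 465, 479.9 and 472 at stage 7, 93.7, 120.1 and 96.1 at stage 8, 91.04, 88.9 and 92.9 at stage 9 and 48.01, 75.2 and 63.04 at stage 10. For AT3G24250, a glycine-rich protein, siliques stages 4 and 5 were higher than all seed stages. It fell by 2.29, and its step from stage 8 to 9, at -0.16, was not called.

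The germin-like gene AT5G39130 was at 317, 265 and 336 in seeds stage 7, 79.8, 49.1 and 61.7 at stage 8 and 9.46, 2.31 and 11.2 at stage 9, with no overlap between these groups. It fell in both steps, -2.17 ± 0.24 from stage 7 to 8 and -2.30 ± 0.24 from stage 8 to 9. Its stage 9 signals were low, and with an offset of 28 the second step was -1.36, still called. SBTI1.1, a subtilase protease, fell from 533 ± 44.5 to 47.8 ± 22.9, and GH9C1, an endoglucanase of the cellulase family, from 121 ± 9.86 to 22.4 ± 12.2. AT5G62150, with a LysM domain, was among the 5 named members of smallest fall over both steps, at -1.99 ± 0.10.

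All 9 named members for oxidation, conjugation and hormone metabolism fell from seeds stage 7 to 9, with a median change of -2.46. So did 84 of all 85 members, beside 15.5% of all tested probe sets. GSTU20 is a glutathione transferase, which joins glutathione to small molecules. GSTU20 read 200.5, 197 and 178 on the 3 arrays of siliques stage 3, 769, 661 and 696 at stage 4 and 1125, 1128 and 1138 at stage 5. In seeds GSTU20 was at 1392, 1392 and 1567 at stage 6, 1148, 1122 and 1106 at stage 7, 159, 159.6 and 175 at stage 8, 39.8, 36.8 and 54.9 at stage 9 and 24.7, 24.4 and 26.4 at stage 10. Every seed stage from 7 on was apart from the one before. It fell by 4.49 from stage 7 to 9 (-4.49 ± 0.09 (SE), adjusted p = 1.62e-22), with -2.72 ± 0.09 and -1.77 ± 0.09 in the separate steps.

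AOP3 is a dioxygenase that modifies the side chain of glucosinolates, the sulfur-rich defence compounds of the cabbage family. AOP3 read 2.16, 6.75 and 13.4 on the 3 arrays of siliques stage 3, 375, 339 and 358 at stage 4 and 895, 843 and 864 at stage 5. In seeds AOP3 was at 1496, 1479.8 and 1633 at stage 6, 1699, 1647 and 1570.2 at stage 7, 627, 611 and 599 at stage 8, 316, 314 and 319.9 at stage 9 and 157, 166 and 159.8 at stage 10. Its seed stages 6 and 7 were above siliques stage 5 on every array, and 41.2% of its loss was complete at stage 8. AOP3 fell by 2.35 from stage 7 to 9 (adjusted p = 4.94e-13). The beta-glucosidase gene BGLU29 had its highest values in seeds stage 7, at 823, 932 and 824, and fell to 154, 174 and 171 at stage 8, a change of -2.32 ± 0.11. AT1G04380, of the same dioxygenase superfamily as AOP3, fell by 2.37 from stage 7 to 9.

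JMT, which makes methyl jasmonate from jasmonic acid, was highest early. JMT read 62.1, 45.7 and 51.4 in siliques stage 3, 746, 757 and 770.4 at stage 4 and 578, 520.2 and 550.0 at stage 5, and 127, 142 and 147 in seeds stage 6, 63.9, 66.1 and 59.4 at stage 7 and 6.44, 16.5 and 2.81 at stage 8. Siliques stage 4 was above siliques stage 5 on every array, and each later group named here lay below the one before. JMT fell by 2.10 from stage 7 to 9. The sarcosine oxidase gene AT2G24580 and the Rossmann-fold reductase gene AT1G76470 fell by 2.46 and 2.64. Of 2 glycosyltransferase genes AT5G12460 fell by 2.46 and AT4G19460 by 1.26, from 36.8, 43.6 and 41.3 to 15.3, 8.95 and 14.8; with an offset of 28 the change of AT4G19460 was -0.74 and not called.

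A further 9 named members are regulators, transporters and proteins of other kinds, and all fell from seeds stage 7 to 9, with a median change of -2.86. As in the other classes, this fall was shared by 84 of the 85 members, beside 15.5% of all tested probe sets. AT1G26680 encodes a protein with the B3 DNA-binding domain, the domain that several master regulators of seed maturation also carry. AT1G26680 read 1.56, 0.488 and 0.928 on the 3 arrays of siliques stage 3, 125, 109.8 and 112 at stage 4 and 174, 159 and 161 at stage 5. In seeds AT1G26680 was at 278, 286 and 301 at stage 6, 208, 195 and 221 at stage 7, 36.6, 40.4 and 33.4 at stage 8, 3.30, 5.64 and 6.58 at stage 9 and 1.84, 3.11 and 16.3 at stage 10. The signals of siliques stage 3 and of seeds stages 9 and 10 were all low, and stages 7, 8 and 9 did not overlap. It fell by 4.15 from stage 7 to 9 (-4.15 ± 0.21 (SE), adjusted p = 9.74e-15), -1.85 of this from stage 8 to 9, where an offset of 28 gave -0.97 and no call. AGL87, a MADS-box factor, fell by 3.52, from 223, 223 and 260.4 to 20.9, 12.7 and 10.2, and AT5G07260, with a lipid-binding START domain, by 2.97.

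AtVEX1 (SWEET5), a sugar transporter of the SWEET family first described in the vegetative cell of pollen, belonged to the set. AtVEX1 read 19.6, 10.7 and 12.9 on the 3 arrays of siliques stage 3, 213, 214 and 228 at stage 4 and 303, 324 and 334 at stage 5. In seeds AtVEX1 was at 493, 498 and 524 at stage 6, 427, 378 and 391 at stage 7, 99.4, 69.2 and 87.6 at stage 8, 57.1, 64.4 and 51.5 at stage 9 and 39.2, 38.7 and 33.2 at stage 10. The highest of its groups was seeds stage 6, and stages 7, 8 and 9 were apart on every array. It fell by 2.65 from stage 7 to 9 (-2.65 ± 0.12 (SE), adjusted p = 1.16e-15). AT1G23000 read 1.76, 0.444 and 2.21 on the 3 arrays of siliques stage 3, 127, 128 and 118 at stage 4 and 170.0, 149 and 149 at stage 5. In seeds AT1G23000 was at 278, 269 and 284 at stage 6, 239, 256 and 239 at stage 7, 54.7, 44.97 and 59.3 at stage 8, 13.4, 48.4 and 29.9 at stage 9 and 9.80, 18.1 and 9.12 at stage 10. AT1G23000 has a heavy-metal-associated domain. It fell by 2.86 (adjusted p = 2.04e-11), most of it from stage 7 to 8, at -2.08 ± 0.22, as stages 8 and 9 overlapped.

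AT2G22660 read 137, 149.6 and 133 on the 3 arrays of siliques stage 3, 996, 989 and 1044 at stage 4 and 1299, 1230.3 and 1244 at stage 5. In seeds AT2G22660 was at 1371, 1416 and 1496 at stage 6, 1252, 1255 and 1222 at stage 7, 399.7, 394 and 424 at stage 8, 261, 257 and 280.0 at stage 9 and 149, 148 and 159 at stage 10. AT2G22660 encodes a glycine-rich domain protein. Each seed stage from 8 on lay below the one before on every array, and its spread was small, so that a fall of 2.20 from stage 7 to 9 had an SE of 0.06. The other 3 were AT1G12080, related to a vacuolar calcium-binding protein, at -2.95, AT1G53690, a homologue of a small RNA polymerase subunit, at -2.70, and AT4G29270, of an acid phosphatase family, at -2.42.

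Beside AT1G62070, 7 named members have no role given here, and 6 of them fell from seeds stage 7 to 9. In the whole set 84 of 85 fell, beside 15.5% of all tested probe sets. AT5G60630 read 32.04, 36.4 and 37.2 on the 3 arrays of siliques stage 3, 1471, 1522 and 1601 at stage 4 and 1418, 1572 and 1559 at stage 5. In seeds AT5G60630 was at 563, 548 and 516 at stage 6, 273, 253 and 287 at stage 7, 37.2, 35.04 and 41.96 at stage 8, 11.9, 12.5 and 18.95 at stage 9 and 21.9, 14.6 and 11.7 at stage 10. AT5G60630 was level between siliques stages 4 and 5 and lower in every seed group. It fell by 3.71 from stage 7 to 9 (-3.71 ± 0.12 (SE), adjusted p = 1.42e-18). AT3G14760 read 5.80, 6.71 and 5.89 on the 3 arrays of siliques stage 3, 548, 439 and 541 at stage 4 and 772, 776 and 702 at stage 5. In seeds AT3G14760 was at 488, 512 and 463 at stage 6, 305, 298 and 232 at stage 7, 28.5, 31.8 and 37.4 at stage 8, 16.4, 4.79 and 13.3 at stage 9 and 12.3, 20.5 and 18.6 at stage 10. For AT3G14760 the stages 7, 8 and 9 were apart, and it fell by 4.00 (adjusted p = 3.68e-16). AT4G33600, AT1G49840 and AT1G30515 fell by 2.37, 2.09 and 2.09.

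The member that was not called was AT5G52500. It read 0.612, 1.09 and 1.92 in siliques stage 3, 228, 214 and 218 at stage 4 and 189, 165 and 131 at stage 5, and in seeds 55.4, 61.2 and 49.8 at stage 6, 5.94, 12.5 and 1.94 at stage 7 and 1.17, 2.26 and 1.32 at stage 9. Its loss was thus 77.4% complete at stage 7, and the difference between stages 7 and 9, -0.61 ± 0.22 (SE), adjusted p = 0.0158, lay among the low signals. With an offset of 1 it was -1.35 and called.

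**Figure D3:**
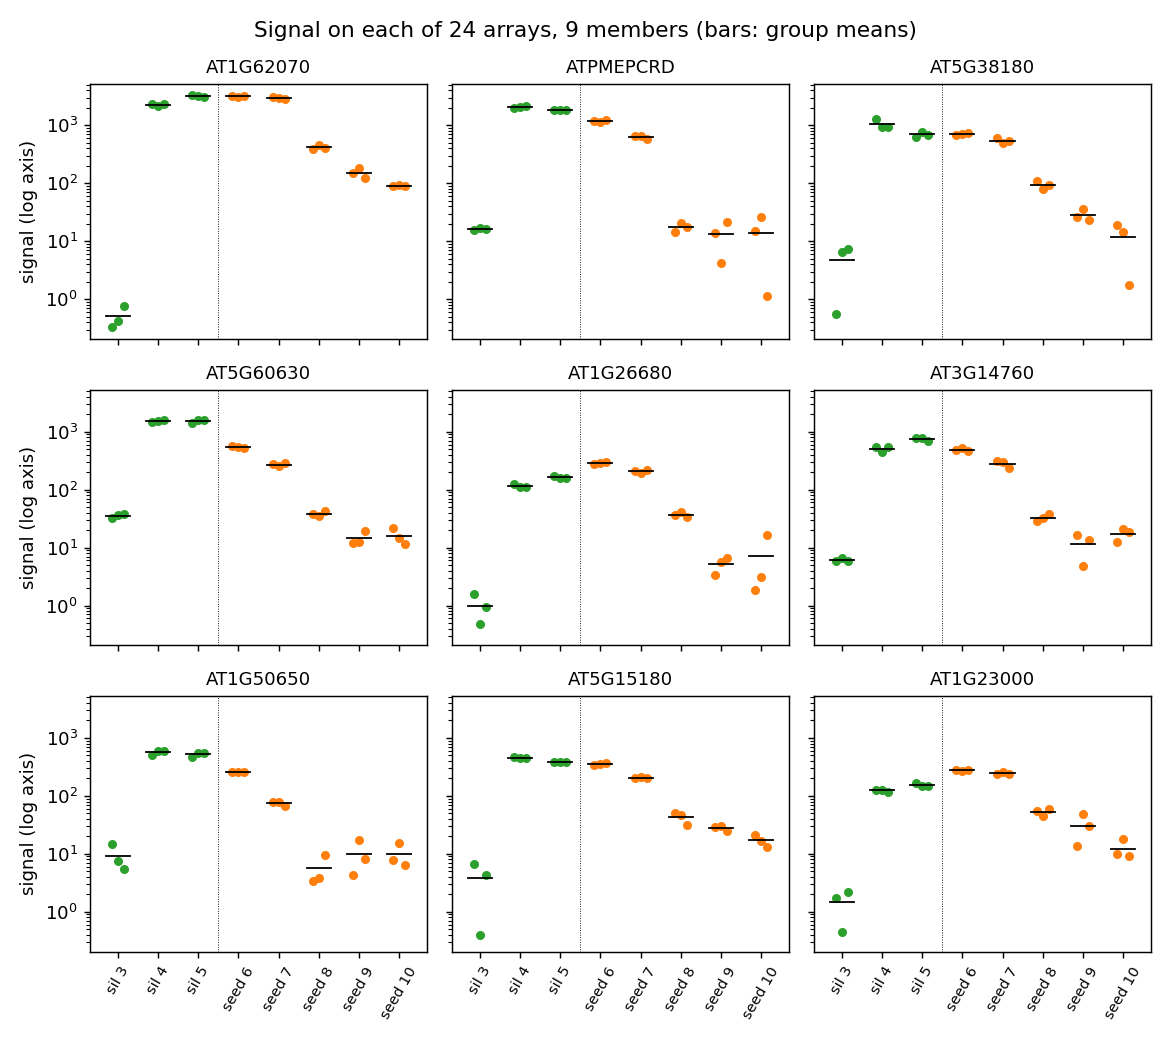
Signal (log axis) of AT1G62070 and the 8 other named members with the highest smaller value of both selecting differences, on each of the 24 arrays, with whole siliques in green, seeds in orange and bars at group means. In every panel the 3 arrays of seeds stage 8 lie below the 3 of stage 7, and ATPMEPCRD goes from 629.9 to 17.6.

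Siliques stage 4 and seeds stage 7 also took no part in the choice, and in this comparison the members parted. Of 85 members 23 were lower in seeds stage 7 (13.1% of all tested probe sets were), 19 were higher (background 9%) and 43 were not called, with a median of 0.11 (log2). The material changes from the whole silique to the seed along with the stage, and these cannot be told apart. AT1G62210, with no role given here, was highest in seeds, at 1492, 1376 and 1404 in stage 7 against 1.09, 1.20 and 2.03 in siliques stage 4. It read 229, 221 and 203 at siliques stage 5 and 679, 619 and 635 in seeds stage 6, so it came up after stage 4, and its difference of 7.41 ± 0.09 (SE), adjusted p = 1.41e-27 starts from the lowest signals. From seeds stage 7 to 8 it fell by 3.05, to 176, 149 and 173.

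Higher in seeds stage 7 were also AT4G36610 by 4.26 ± 0.09, AT1G62500 by 2.59 ± 0.10, AOP3 by 2.18 ± 0.15, BGLU29 by 2.06 ± 0.11, AT1G53690 by 1.81 ± 0.15 and AT5G07260 by 1.40 ± 0.16. Of the 14 named members that were lower, AT5G52500 stood at -4.11 ± 0.22, JMT at -3.45 ± 0.22, AT1G50650 at -2.81 ± 0.23, AT5G60630 at -2.47 ± 0.12 and AT5G62150 at -2.06 ± 0.10. By class, 6 of 8 wall and secreted members were lower and none was higher, and of the 9 members of the lipid class 1 was lower and 2 were higher. The difference between classes was not tested. By the group with the highest mean, 22 of the 85 members were highest in siliques stage 4, 17 in stage 5, 33 in seeds stage 6 and 13 in stage 7 seeds, and none in any other group. Of all tested probe sets 12.7%, 5.16%, 10.9% and 6.74% were highest in the same groups.

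Among the tested markers of the silique wall, ADPG1, a polygalacturonase of pod opening, differed by -1.98 in seeds stage 7 against siliques stage 4 and ALC, a factor of the valve margin, by -2.63, and these were the 2 of 4 called lower. The background for lower calls in that comparison was 13.1% of all tested probe sets. The other markers tested, SPT and YAB3, both factors of carpel and fruit patterning, were at 0.93 and 0.98 in the same comparison, higher in seeds but short of 2-fold. The summed signal of the 4 was 403 to 429 on the arrays of siliques stage 4 and 309 to 319 on those of seeds stage 7. Their part in the lower members was not tested. Across the change of material itself, seeds stage 6 against siliques stage 5, 65 of 85 members lay within 2-fold, 11 were at least 2-fold higher in seeds and 9 at least 2-fold lower, where 4.07% and 7.57% of all tested probe sets were. Both groups had chosen the members, so this is a description.

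**Figure D4:**
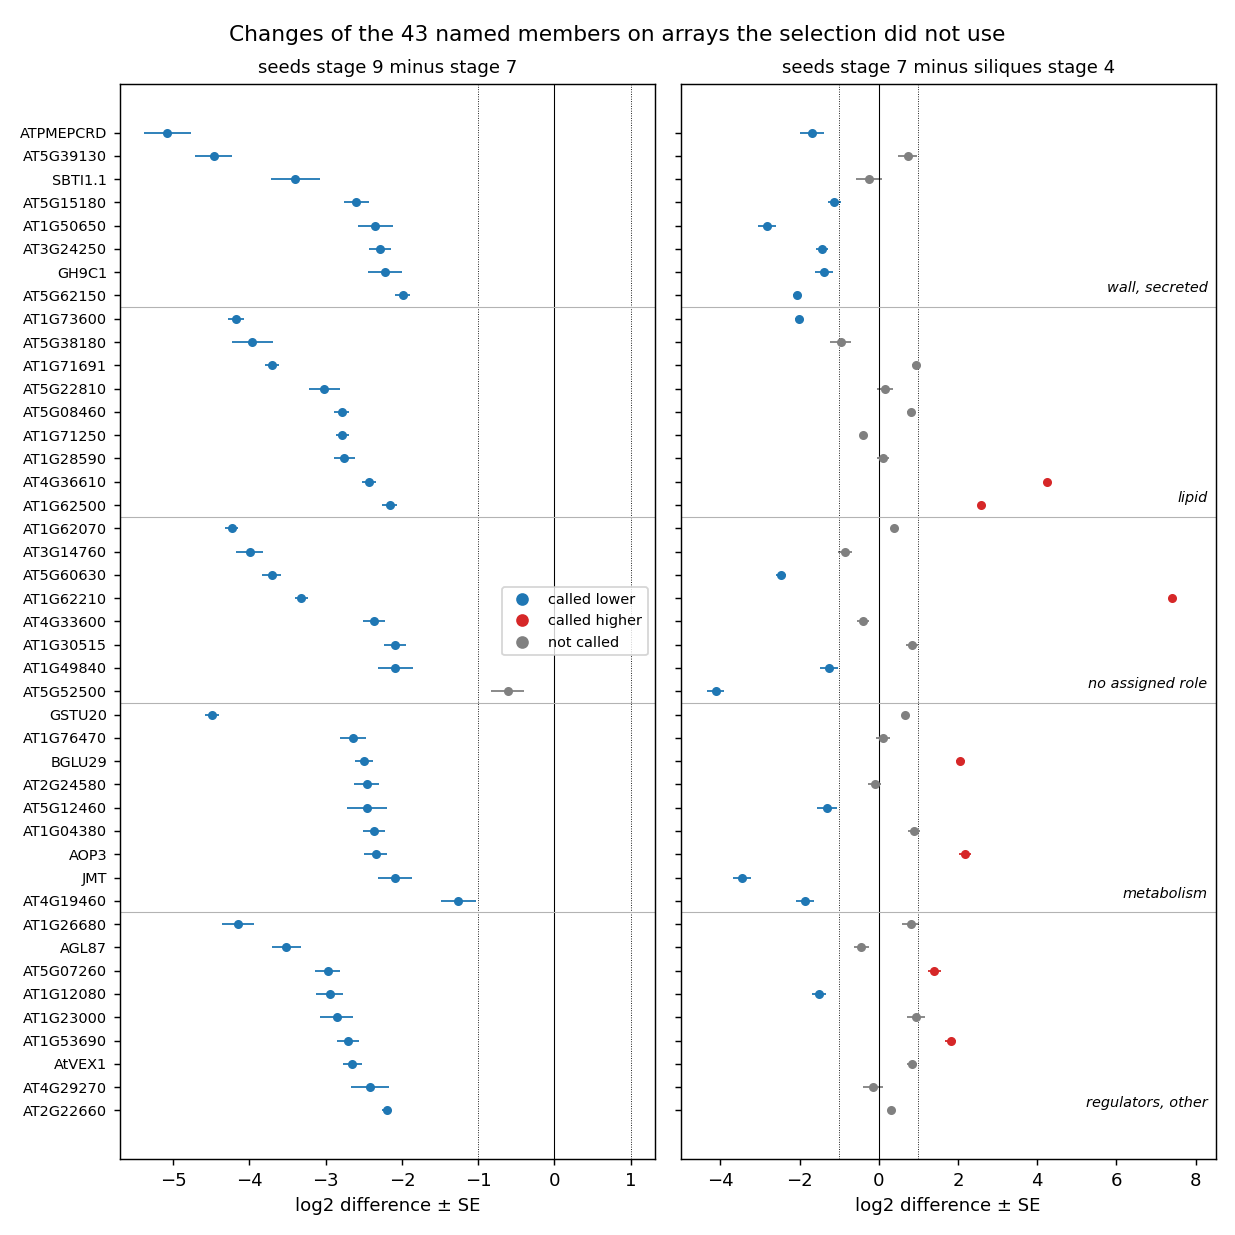
Log2 differences with SE of the 43 named members in seeds stage 9 against 7 (left) and in seeds stage 7 against siliques stage 4 (right), sorted by class; dotted lines mark 2-fold. On the left 42 of 43 are called lower, and on the right 14 are called lower, 7 higher and 22 are not called.

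The steps of the seed series differed among the named members. From stage 7 to 8 the 5 with the largest change were ATPMEPCRD at -4.70, AT1G73600 at -3.52, AT1G62210 at -3.05, AT3G14760 at -2.85 and AT1G62070 at -2.81. At the other end were AT5G52500 at -0.47, which was not called, AT1G62500 at -1.17, AT5G12460 at -1.17, AOP3 at -1.41 and AT4G19460 at -1.43. Of these, AT5G12460 and AT4G19460 were not called with an offset of 28, at -0.91 and -0.82, nor AT5G12460 and AT1G62500 with reference gene centring, both at -0.94. From stage 8 to 9, 11 of the 43 named members were called, and 4 with an offset of 28. Fewer than in the main fit were also called without the arrays of high 25S control, which leaves 1 array at stage 8. In this step AT5G39130 at -2.30, AT1G26680 at -1.85, GSTU20 at -1.77, AT5G38180 at -1.50 and AT1G62070 at -1.43 had the largest changes. AT1G50650 at 0.39, JMT at 0.17, AT4G19460 at 0.17, AT5G52500 at -0.14 and AT1G30515 at -0.15 were the highest in that step, none of them called. The sign for JMT turned to -0.07 without array A of stage 9 and to -0.12 without array C of stage 8.

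The 42 members without a gene in the annotation can be described only by their values. All 42 fell from seeds stage 7 to 9, with a median change of -2.79, and 41 of them from stage 7 to 8. Of all tested probe sets 15.5% and 11.3% fell in these comparisons. In seeds stage 7 against siliques stage 4, 9 were lower and 12 higher, where 13.1% and 9% of all tested probe sets were. The probe set of largest fall from stage 7 to 9 among them, chosen after its values were seen, went from 813, 771 and 743 to 1.60, 1.17 and 13.2, a change of -6.12 ± 0.23. Its arrays at stage 9 were among the low signals, so the size depends on the offset.

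The members were set beside 308 probe sets that were higher at siliques stage 5 than at stage 3 by the same minimum but did not meet the second threshold. In seeds stage 9 against 7, 75 of these 308 (24.4%) fell and 72 (23.4%) rose, with a median of -0.05, beside 84 of 85 and -2.72 in the members. The 308 were chosen for not meeting the minimum loss between seeds stages 6 and 10, an interval that contains stages 7 to 9, so the choice largely fixes this gap and it is a description. In seeds stage 7 against siliques stage 4, 144 of the 308 (46.8%) were higher and 77 (25%) lower, compared with 19 (22.4%) and 23 (27.1%) of the 85. The sets were split on seeds stages 6 and 10, which can bear on the level at stage 7, so this gap too is a description. A median of 82.9% of the difference between siliques stages 3 and 5 was present at stage 4 in the 308 and 92.1% in the members, which is a description since both sets were chosen on that difference.

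Among pathways of the same period, plastid fatty acid synthesis, which makes the acyl chains of seed oil, also fell. Of 10 tested genes of that pathway 9 fell from seeds stage 7 to 9, with a median of -2.73, 8 fell from stage 7 to 8 and 3 from stage 8 to 9. In these comparisons 15.5%, 11.3% and 2.61% of all tested probe sets fell. From stage 7 to 9 9.66% of them rose, and from stage 7 to 8 8.06%. AT5G10160, a dehydratase of the cycle, changed by -2.81 from stage 7 to 9 and AT3G02630, an acyl carrier protein desaturase, by -3.68, while FATB, a thioesterase, was at -0.01 and not called. In contrast none of 5 storage protein genes fell and 3 rose, with PAP85 at 1.29, and all 14 genes for late embryogenesis abundant proteins, which protect drying cells, rose with a median of 2.93. Of 4 oil body genes OLEO3 fell by 1.49 and 2 rose. Of the maturation factors, EEL and BZIP53 were at 0.38 and 0.81 from stage 7 to 9 and not called, while from stage 7 to 8 EEL rose by 1.005 and BZIP53, at 0.76, was not called. No listed gene of these pathways is a member, but many had no probe set of their own. Those with one were 10 of 32 for plastid fatty acid synthesis, 5 of 13 for storage proteins and 4 of 11 for oil bodies. They were 14 of 20 for late embryogenesis abundant proteins and 2 of 11 for maturation factors. The choice of members also left out 2 genes that met both thresholds. These lists were drawn up with earlier results of the same arrays known, so their counts are no independent support.

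Some markers of seed tissues fell in the same interval, seeds stage 7 to 9, in which 15.5% of all tested probe sets fell and 9.66% rose. Of 5 tested seed coat mucilage genes 3 fell from seeds stage 7 to 9, and their summed signal was 1729 to 1780.4 at stage 7, 711 to 753 at stage 8 and 612 to 649.8 at stage 9. Of 4 seed coat flavonoid genes 3 fell, with a summed signal of 1117 to 1224, 644 to 686 and 222 to 235. Neither of 2 endosperm markers was called, and their sum was 14.5 to 18.1 at stage 7 and 23.8 to 51.1 at stage 9. The 40th percentile of the stage 7 arrays was 21.7 to 21.95, so there both markers cannot be told from background. Of 4 silique wall genes 1 fell, and of 3 tested pollen markers none fell and 2 rose. The summed signal of the 4 pollen markers on the arrays was 65.8 to 78.2 at stage 7 and 213 to 231 at stage 9. No marker list held a member, but many markers had no probe set of their own. Those with one were 5 of 12 for mucilage, 4 of 16 for flavonoids, 2 of 7 for endosperm and 4 of 10 for the silique wall. The part of these tissues in the fall of the members was not tested. None of 7 reference genes was called in any of the tested comparisons, where a call needs a 2-fold change. Their median change was -0.36 in seeds stage 9 against 7 and -0.47 in stage 8 against 7. The summed signal of the 7 was 1258 to 1331 at stage 7 and 1121 to 1142 at stage 9.

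Relatives that lie near a member on the chromosome can be set beside it as a description. AT5G38180 lies in a row of lipid transfer genes on chromosome 5 with AT5G38160 and AT5G38170. Their signals were 11.4 ± 3.47 (SD, n = 3) and 13.4 ± 1.03 for whole siliques of stage 3, 4584 ± 479 and 5127 ± 411 for seeds of stage 7, and 1335 ± 86.03 and 1036 ± 54.1 in seeds stage 10. Both met the first threshold, and between seeds stages 6 and 10 they differed by -1.72 and -2.22, compared with -5.38 for AT5G38180, whose stage 10 signals were low, so that the size of its difference depends on the offset. AT5G38195, also near it, differed by 1.35 between siliques stages 5 and 3 and by -1.12 between seeds stages 10 and 6. The GDSL lipase gene AT1G28590 has a relative in AT1G28600, which differed by 2.14 between siliques stages 5 and 3 and by -0.62 between seeds stages 10 and 6. In the same differences AT1G28610 was at 0.22 and 0.67 and AT1G28580 at -0.67 and -1.49. AT4G29260, set beside AT4G29270, was at -0.04 and -1.47. Of the 43 named members 21 lie on chromosome 1, 4 on chromosome 2, 2 on chromosome 3, 5 on chromosome 4 and 11 on chromosome 5. The share of all genes on each chromosome was not set beside these counts, so they do not show clustering. The closest pair, AT1G62070 and AT1G62210, is 12 protein-coding genes apart in the order of the reference annotation.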

How the data were processed

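Each sample of siliques or seeds had its RNA on 1 ATH1 array. The deposited intensity values are linear signals from MAS5, a tool that the submitters' processing notes list with no version. Leaving out the extreme 2% at either end, every array had a mean signal close to 100, so the values had been scaled by the authors. Samples were grouped by their tissue label.

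Signals were used as log2(signal + 7). Testing was limited to probe sets that exceeded the 40th percentile of the array on 3 or more arrays: 16940 probe sets, among them all 85 members. The fit was made in limma (version 3.58.1, R 4.3.3) with 1 mean for each group over the 24 arrays, a trended eBayes prior and 16 residual degrees of freedom. Files were read with the data.table package (version 1.17.8). A call needs a Benjamini-Hochberg adjusted p under 0.05 over all tested probe sets and a 2-fold change. An error is the SD for a signal and the SE for a log2 difference. Only comparisons of arrays outside the selection were tested. The procedure was checked on simulated data. Tables and figures were made in Python 3.11.15 with pandas 2.3.3, numpy 2.4.6 and matplotlib 3.10.9.

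The members and gene lists were chosen with earlier results of these data known. Of 22810 probe sets 13513 have exactly 1 gene in the annotation, 503 several and 8794 none, and 13436 of the 13513 matched a locus of the TAIR10.1 gene table. Values on all arrays are given for AT1G62070, for the 8 further named members with the highest smaller value of the selecting differences and for 2 members of each class, chosen by mean signal. In each tested comparison the rule names the 5 lowest and 5 highest changes, and others are named by class. Classes were assigned from general knowledge after the members were known. The brightest probe set stands for a gene of a list, and the lists for fatty acid modification and seed coat suberin had no probe set of their own. Promoter sequences were not used here. Alternatives were other offsets, filters, scalings, array sets, variance models and a replicate block. The title letters A, B and C recur in seeds stages 6 to 9. Samples of the same letter did not deviate together (18 correlations from -0.05 to 0.04, and 36 from -0.08 to 0.06 between different letters). The letters were therefore not used as pairs in the main fit, though a pairing that leaves no common deviation would go unseen.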

Additional observations from a re-analysis of the deposited data

How the results depend on the processing

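Under the alternatives run, members called lower numbered 81 to 85 in seeds stage 9 against 7, 77 to 84 in stage 8 against 7 and 22 to 29 in stage 9 against 8, with 1 exception: an offset of 28 left 11 in the last. In seeds stage 7 against siliques stage 4 they were 23 to 24 lower and 17 to 20 higher. The thresholds were met by 49 probe sets with an offset of 28 and by 121 with an offset of 1, and by 83 to 88 with any 1 array left out. For stage 9 against 8 the sign turned without the arrays of high 25S control for AT1G30515 (0.16), AT4G19460 (0.00) and JMT (-0.52), and for JMT without array A of stage 9 (-0.07) or C of stage 8 (-0.12), within a range of -0.12 to 0.51 over single arrays left out; none was called, and the cause was not tested. Leaving out the arrays of high 25S control leaves 1 array at stage 8, assumed to vary like the other groups. AT5G52500 was called in stage 9 against 7 only with an offset of 1, and AT4G19460 lost that call with an offset of 28. In stage 8 against 7 AT4G19460 and AT5G12460 lost their calls with an offset of 28, and AT5G12460 and AT1G62500 with reference gene centring. In stage 9 against 8, 7 of 11 named calls were lost with an offset of 28 (AT1G12080, AT1G26680, AT1G71691, AT3G14760, AT5G07260, AT5G12460 and AT5G60630), 4 without the arrays of high 25S control and at most 2 under any other setting. With a replicate block the counts were 84, 83 and 23, the same as without it; seeds stage 7 and siliques stage 4 share no letter. The planned search of promoters was not run, since no promoter sequence was used here. Low signals limit the size of the largest changes.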
